A study of Mus musculus with 59 samples.

Results

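The cell cycle genes of S phase and of G2 and M phase were read across all the groups of an RNA-seq study of TCF-1. The set holds 38 genes, chosen by name and matched to 38 of the 45706 Ensembl genes in the count tables. It was split by role into 17 replication genes, from Mcm2 to Ccne2, and 21 mitotic genes, from Mki67 to Ube2c. The rule uses gene names alone, and all 38 genes passed the low-count filter in both fits.

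Cells double their DNA in S phase and part it in mitosis, and each step has its own set of genes. In late G1 the cyclin E proteins and E2F transcription factors switch on the replication genes, whose products open the DNA (the MCM helicase, CDC45 and GINS), load and clamp the machinery (CDC6, CDT1, PCNA) and make nucleotides (RRM1, RRM2, TYMS). Later, cyclin A, cyclin B and CDK1 drive mitosis, and the genes for the spindle, the kinetochore and the spindle checkpoint are switched on together, through promoter elements known as CHR and CCAAT boxes. Early thymocyte precursors divide many times as they pass through the DN1 and DN2 stages, and TCF-1, encoded by Tcf7, is a factor that starts the T cell programme in them.

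The cell line was Scid.adh, a mouse thymic lymphoma line labelled as a Tcf7 knockout, and the titles of all its groups carry the same name, HMG-E10. It received a retrovirus (RV) with TCF-1 lacking a segment, named DL1, DL2, DL6, DL7 and DHMG, with wild-type TCF-1 (WT), or with no insert (empty vector, EV). DHMG was read as TCF-1 without the HMG box, the part that binds DNA. Sorting took place 72 h after the virus was added. The primary cells came from bone marrow of the strain Tcf7eGFP fl/fl Cre+, and all their titles carry TCF1KO and LSK, so the control cells are titled as knockout as well. LSK was read as progenitors without lineage markers that carry Sca-1 and c-Kit. For these primary cells the labels used here give neither the promoter that drives Cre nor the age of the mice. They received L1d, L7d, HMGd, P45 (the titles' name for what the cell line labels call WT TCF-1) or EV and were grown for 7 days on OP9-DLL1, stromal cells that carry a Notch ligand. They were then sorted as DN2 (L1d, L7d and P45) or DN1 (L1d, L7d, HMGd, P45 and EV), stages named for CD25, low in DN1 and high in DN2. None of the 59 samples is DN2 with HMGd or EV. Each group has 2 replicates. Nothing in the labels says that these came from separate cultures or animals, so the tests measure the spread between samples that may be technical repeats.

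Reads in genes numbered 3.82 to 9.48 M per cell line library and 9.06 to 34.4 M per primary replicate, each the sum of its libraries. Tcf7 stood at 1723 to 3772 CPM (gene counts scaled by library size) with the constructs and at 565 and 551 CPM with EV in the cell line, so the libraries labelled knockout with EV held Tcf7 reads. The counts are per gene and do not show whether these reads lie outside the altered part, so they do not check that label. In DN1 cells Tcf7 stood at 625 to 964 CPM with the constructs and at 3.33 and 4.26 CPM with EV. The T lineage gene Cd3e stood at 232 to 290.2 CPM in the line. In primary cells Il2ra, which encodes CD25, stood at 373 to 1278 CPM in DN2 and at 0.425 to 3.42 CPM in DN1, the direction of the CD25 gate. Kit, which encodes c-Kit, stood at 261 to 308 CPM in DN2 and at 93.2 to 114 CPM in DN1, although the labels give DN1 as c-Kit high and DN2 as c-Kit low, while Cd44 stood at 161 to 208 CPM in DN2 and at 351 to 514 CPM in DN1. Rag1 and Cd3e stayed under 4 CPM in all primary replicates. DN1 libraries also held RNA of late neutrophil genes, 13 markers that summed to 10652 to 33765 CPM in DN1, 136 to 1133 CPM in DN2 and 2.94 to 19.3 CPM in the line. In such bulk samples, fewer cells of a type and less RNA per cell cannot be told apart.

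Levels below are CPM with TMM scaling. Called means that the quasi-likelihood test of edgeR gave a p under 0.05 after Benjamini-Hochberg adjustment over all genes of the fit. A count of members called is given beside the share of all tested genes that were called in the same direction.

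Promoter sequences are shown for 6 members that are described below and hold an E2F or CHR match, 3 replication genes and 3 mitotic genes, to let the motifs of both classes be seen. Windows from RefSeq (GRCm38.p6) were matched for 31 of the 38 members, 14 replication and 17 mitotic, and the 250 bases before the start were searched on both strands. E2F sites were searched as TTTCGCGC, TTTGGCGC or TTTCCCGC, CHR elements as TTTGAA or TTCGAA, and CCAAT boxes as CCAAT, and matches of the E2F forms on opposite strands may overlap. The start is that of the first RefSeq window listed for the gene. Below, each line holds the 200 bases before that start, 5′ to 3′ on the gene's strand, with E2F and CHR matches in capitals. Mcm5 lies at chr8:75109309-75109508 (plus strand), Mcm6 at chr1:128359706-128359905 (minus), Cdc6 at chr11:98907951-98908150 (plus), Cdk1 at chr10:69352913-69353112 (minus), Cdc20 at chr4:118437344-118437543 (minus) and Bub1b at chr2:118598011-118598210 (plus).
Mcm5: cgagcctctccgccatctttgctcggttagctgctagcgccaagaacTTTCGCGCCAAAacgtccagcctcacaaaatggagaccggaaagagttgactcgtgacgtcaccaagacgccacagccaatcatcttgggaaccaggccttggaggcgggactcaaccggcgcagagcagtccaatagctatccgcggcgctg
Mcm6: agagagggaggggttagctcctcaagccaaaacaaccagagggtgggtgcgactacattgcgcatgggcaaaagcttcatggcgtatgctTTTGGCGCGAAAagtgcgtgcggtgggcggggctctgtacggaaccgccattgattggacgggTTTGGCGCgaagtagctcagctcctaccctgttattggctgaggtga
Cdc6: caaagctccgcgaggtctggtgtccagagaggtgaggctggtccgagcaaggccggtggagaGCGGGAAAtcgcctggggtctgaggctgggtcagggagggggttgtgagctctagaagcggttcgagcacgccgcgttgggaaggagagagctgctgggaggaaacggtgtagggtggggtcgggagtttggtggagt
Cdk1: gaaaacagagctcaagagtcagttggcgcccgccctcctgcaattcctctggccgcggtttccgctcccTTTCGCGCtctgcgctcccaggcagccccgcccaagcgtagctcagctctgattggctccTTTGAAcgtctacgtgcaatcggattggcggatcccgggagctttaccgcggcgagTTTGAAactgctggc
Cdc20: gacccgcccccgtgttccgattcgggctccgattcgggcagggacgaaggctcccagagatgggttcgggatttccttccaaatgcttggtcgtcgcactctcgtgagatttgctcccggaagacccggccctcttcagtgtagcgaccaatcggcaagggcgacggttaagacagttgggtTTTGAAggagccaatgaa
Bub1b: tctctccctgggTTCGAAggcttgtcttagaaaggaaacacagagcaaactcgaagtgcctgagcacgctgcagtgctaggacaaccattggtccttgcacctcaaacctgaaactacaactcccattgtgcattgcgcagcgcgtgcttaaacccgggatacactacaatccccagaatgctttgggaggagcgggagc

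Mcm5 carried 2 overlapping E2F matches, Mcm6 carried 3, and Cdc6 carried 1. The printed Cdc6 bases lie past the GENCODE M21 start of the gene at chr11:98907801, so that match lies within the annotated gene. Cdk1 carried 1 E2F match and 2 CHR matches, and Cdc20 and Bub1b carried 1 CHR match each. The GENCODE M21 start of Cdk1 lies at chr10:69352938 (minus strand). The Cdk1 CHR match that begins 15 bases before the RefSeq start lies past that position, within the annotated gene. Over the members with a window, 4 of 14 replication genes (Mcm5, Mcm6, Mcm7 and Cdc6) and 1 of 17 mitotic genes (Cdk1) held an E2F match, against 3.08% of the 10426 tested genes with a window and 1.59% of all 27025 windows. A CHR match stood in 3 of 14 replication genes and 8 of 17 mitotic genes, among them Mki67, Top2a and Ccnb2, against 12.6% of tested genes and 17.4% of all windows. CCAAT stood in 10 of 14 replication genes and 15 of 17 mitotic genes, against 36.2% of tested genes and 34.5% of all windows. A match is a string of letters, not a shown binding site, and no match says only that these letters are not in the window.

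The members moved little. Between the highest and the lowest of the 7 cell line groups, group means differed 1.11-fold (Mcm7) to 1.52-fold (Ccne2) among replication genes and 1.08-fold (Cdk1) to 1.58-fold (Mki67) among mitotic genes. Over the 8 primary groups the range was 1.15-fold (Rrm1) to 1.62-fold (Rrm2) and 1.14-fold (Top2a) to 1.63-fold (Ube2c). No member reached 2-fold in either kind of cell. In the line, under TMM scaling, DHMG held the highest mean of 12 of the 17 replication genes and the lowest mean of 16 of the 21 mitotic genes. The summed replication level as a share of the summed mitotic level was 105% and 107% with DHMG, 84.3% and 86.4% with WT and 78.1% and 78.3% with EV. In primary cells it was 78.6% to 92.5% in DN2 and 56.1% to 77% in DN1. These sums are in CPM, so long and abundant transcripts weigh most in them.

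**Figure D1:**
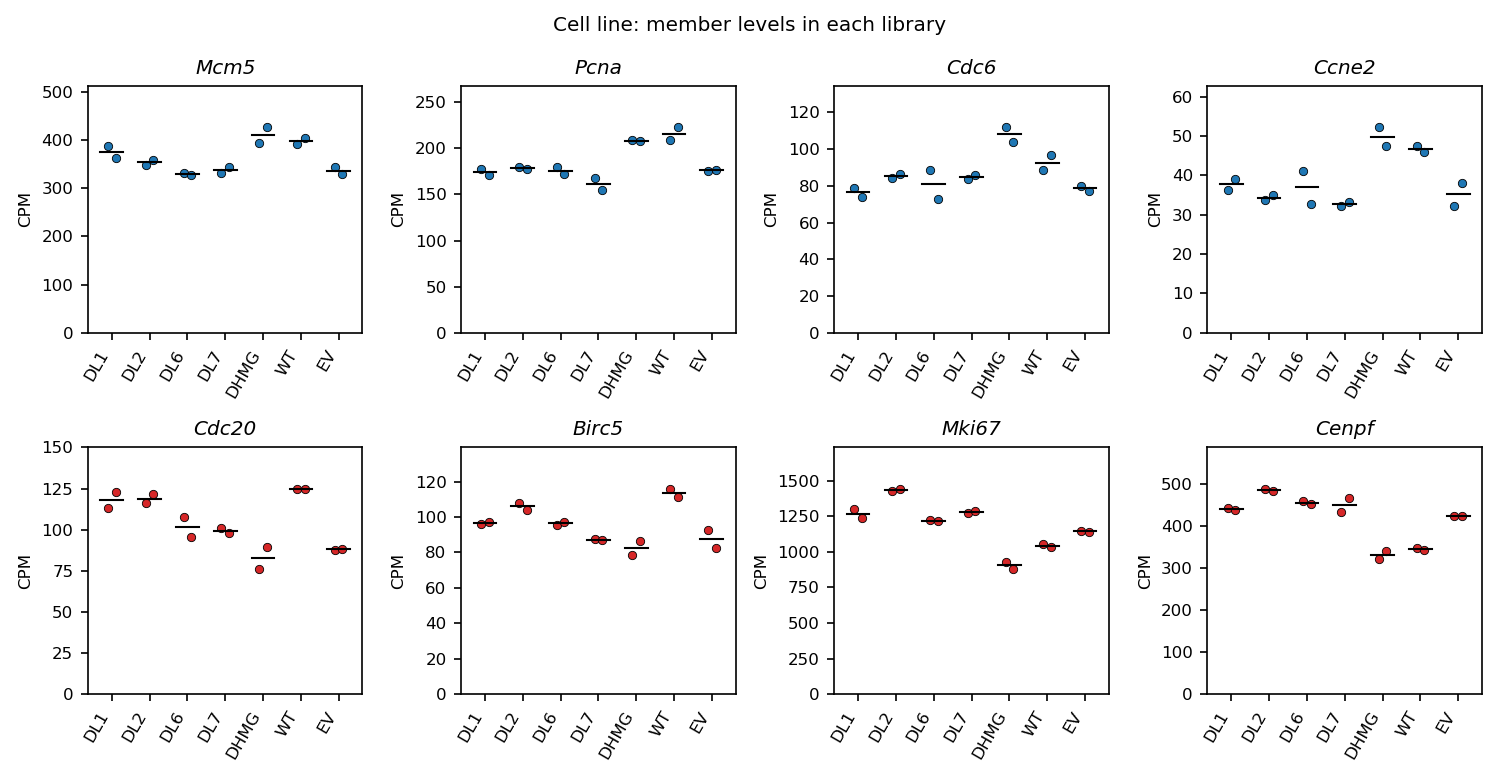
CPM of 4 replication genes (blue) and 4 mitotic genes (red) in the cell line, 1 point per library and a bar at the mean of 2. DHMG has the highest Cdc6 and the lowest Mki67 and Cenpf, WT has the highest Pcna, and DL2 has the highest Mki67.

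What added wild-type TCF-1 does to these genes in the line labelled Tcf7 knockout was read from WT against EV, where EV itself held Tcf7 reads. Of 17 replication genes 6 rose and none fell, where 12.3% of the 10939 tested genes rose and 12.6% fell. Of 21 mitotic genes 4 rose and 3 fell. The median log2 fold change was 0.15 for the replication genes and 0.10 for the mitotic genes, against 0.01 for all genes. Without EV replicate 2 the 13 calls became 8.

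Among the licensing and fork genes, Mcm5, a helicase subunit, stood at 391 and 405 CPM with WT, against 344 and 329 CPM with EV (log2 fold change 0.24, SE 0.054, edgeR adjusted p = 0.000657). Pcna, the sliding clamp of the DNA polymerases, stood at 209 and 223 CPM with WT, against 175 and 177 CPM with EV (log2 fold change 0.29, SE 0.060, edgeR adjusted p = 0.000237). In both genes the WT libraries lay above both EV libraries. Gins2, a subunit of the GINS complex of the helicase, stood at 40.5 and 45.3 CPM with WT, against 34.8 and 29 CPM with EV (log2 fold change 0.41, SE 0.11, edgeR adjusted p = 0.00543). Mcm4 and Cdc6 also rose, by log2 fold changes of 0.16 and 0.23. Mouse Pcna, Tyms, Ccnb1 and Ccnb2 have annotated pseudogenes, so their counts are uncertain to the extent that reads were shared.

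The 2 cyclin E genes differed in their calls. Ccne2 stood at 47.4 and 46.0 CPM with WT, against 32.2 and 38.2 CPM with EV (log2 fold change 0.42, SE 0.11, edgeR adjusted p = 0.00453). Ccne1 stood at 30.3 and 31.8 CPM with WT, against 28.2 and 27.3 CPM with EV, and was not called (log2 fold change 0.16, SE 0.13, edgeR adjusted p = 0.392). The difference between the 2 genes was not tested.

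Among the mitotic genes the rises were in Cdc20, which activates the anaphase-promoting complex, Birc5 (survivin) of the chromosomal passenger complex, the kinase Aurka and the cyclin Ccna2. Cdc20 stood at 125 and 125 CPM with WT, against 87.7 and 88.6 CPM with EV (log2 fold change 0.51, SE 0.076, edgeR adjusted p = 1.27e-06). Birc5 stood at 116 and 111 CPM with WT, against 92.7 and 82.6 CPM with EV (log2 fold change 0.37, SE 0.074, edgeR adjusted p = 0.000193). Each WT library lay above both EV libraries in these genes. Aurka stood at 66.9 and 73.4 CPM with WT, against 58.8 and 53.4 CPM with EV, and Ccna2 at 210.3 and 215 CPM with WT, against 176 and 178 CPM with EV.

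The 3 falls were in Mki67, a surface coat of mitotic chromosomes, and in the kinetochore genes Cenpe and Cenpf. Mki67 stood at 1053 and 1033 CPM with WT, against 1146 and 1142 CPM with EV (log2 fold change -0.13, SE 0.046, edgeR adjusted p = 0.0267). Cenpe stood at 239.8 and 220.0 CPM with WT, against 285 and 292 CPM with EV (log2 fold change -0.32, SE 0.057, edgeR adjusted p = 2.43e-05). Cenpf stood at 347 and 343 CPM with WT, against 422 and 422 CPM with EV (log2 fold change -0.29, SE 0.052, edgeR adjusted p = 3.26e-05). The drivers of mitotic entry were not called. Cdk1 stood at 175 and 176 CPM with WT, against 172 and 161 CPM with EV (edgeR adjusted p = 0.443), and Ccnb1 at 71.4 and 73.4 CPM with WT, against 62.9 and 71.2 CPM with EV (edgeR adjusted p = 0.398).

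Mki67, Cenpe and Cenpf are the 3 members whose longest annotated transcript is over 7 kb, at 10.1, 7.91 and 11.1 kb, and the fold changes of all genes moved with transcript length in the line. Over all tested genes the median log2 fold change of WT against EV was 0.20 for 2300 genes under 2 kb, 0.04 for those of 2 to 4 kb, -0.08 for those of 4 to 7 kb and -0.20 for 788 genes over 7 kb. In a fit with each library's length trend taken out, added after seeing the data, Cenpe and Cenpf were not called (log2 fold changes of -0.12 and -0.01), and Mki67 turned to a rise (0.12, edgeR adjusted p = 0.0378). In that fit the rises of Mcm4, Mcm5, Gins2, Cdc6, Ccne2, Ccna2, Cdc20 and Birc5 stayed called, and those of Pcna (1.52 kb, log2 fold change 0.16) and Aurka (1.90 kb, log2 fold change 0.22) were not. A change in long genes themselves and a change in how long transcripts were captured cannot be told apart by that fit.

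**Figure D2:**
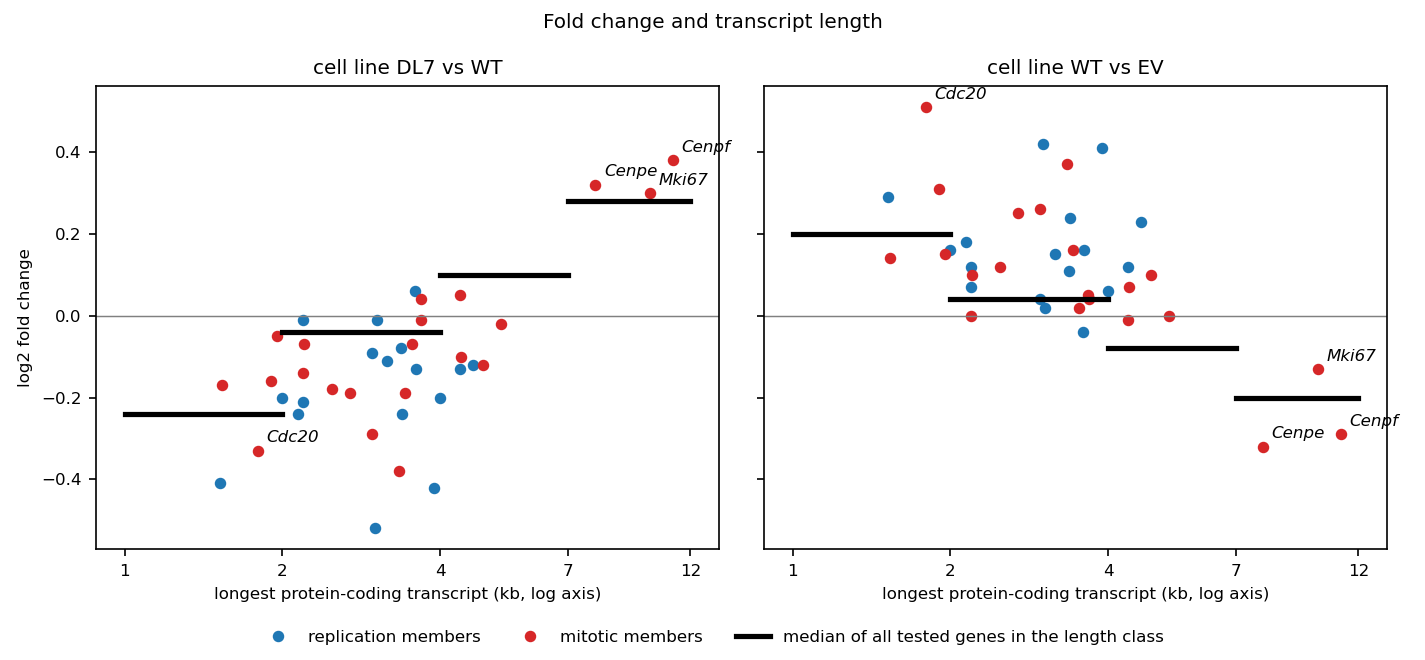
Log2 fold change of the 38 members against the length of the longest protein-coding transcript in kb (log axis), for DL7 against WT (left) and WT against EV (right), with bars at the median of all tested genes of a length class. Mki67, Cenpe and Cenpf lie near the median of genes over 7 kb, which is 0.28 on the left and -0.20 on the right.

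In other genes of the pathway, 20 of 44 further replication genes rose with WT and 4 fell, with a median of 0.19, and 8 of 52 further mitotic genes rose and 3 fell. Over all tested genes 12.3% rose and 12.6% fell, and the count of mitotic rises lies near that share. Tk1 (thymidine kinase), Orc6 (origin recognition) and Pole2 (a polymerase subunit) rose most, by log2 fold changes of 0.54, 0.49 and 0.45. E2f7, a repressor of the E2F family, fell by 0.81, and the DNA methyltransferase Dnmt1 by 0.27. Of the mitotic ones Dlgap5, Cdc25c and Pbk rose by 0.43, 0.41 and 0.35, and the kinesins Kif18b and Kif2c fell by 0.34 and 0.31. Among 24 tested G1 regulators 4 rose and 6 fell. The cyclins Ccnd2 and Ccnd3 rose by 0.44 and 0.37, and the antiproliferative genes Btg1 and Btg2 and the MAX partner Mxd4 fell by 0.56, 0.58 and 0.81.

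How the shortened forms differ from full-length TCF-1 was read against WT, and whether each differs from no added TCF-1 was read against EV. These comparisons share the WT or the EV libraries, so values that are high or low in these by chance enter several of them. With DL6 7 replication genes were lower than with WT and none were higher (10.2% of all genes lower, 11.3% higher). The mitotic genes had 5 lower and 3 higher. With DL7 it was also 7 lower and none higher, and 3 lower and 3 higher mitotic genes, where 15% of all genes were lower and 15.4% higher. With DL2 3 replication genes were lower and 3 mitotic genes higher than with WT (4.53% of all genes lower, 6.86% higher). With DL1 2 replication genes were lower and 1 was higher, and 1 mitotic gene was lower and 3 were higher (4.03% lower, 6.74% higher). The 7 calls with DL1 became 3 without WT replicate 2 and 12 without DL1 replicate 1, and the 15 with DL6 became 7 without DL6 replicate 2 and 7 without WT replicate 2.

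Pcna was lower than with WT in each of the 4 forms. It stood at 178 and 171 CPM with DL1, 180.0 and 178 CPM with DL2, 179.9 and 172 CPM with DL6 and 168 and 155 CPM with DL7, against 209 and 223 CPM with WT (log2 fold changes of -0.30, -0.27, -0.30 and -0.41). No library of the 4 forms reached the lower WT library. With the length trend taken out the log2 fold changes of Pcna were -0.21, -0.17, -0.18 and -0.26, and that with DL2 was not called (edgeR adjusted p = 0.0616). Ccne2 stood at 32.3 and 33.3 CPM with DL7, against 47.4 and 46.0 CPM with WT (log2 fold change -0.52, SE 0.11, edgeR adjusted p = 0.000336), and was also lower with DL2 and DL6. Mcm5 stood at 331 and 327 CPM with DL6, against 391 and 405 CPM with WT (log2 fold change -0.27, SE 0.055, edgeR adjusted p = 0.000202), and it was lower with DL7 (-0.24) and DL2 (-0.17). Gins2 was lower with DL6 (-0.34) and DL7 (-0.42). Mcm3, another helicase subunit, was the exception, at 462 and 496 CPM with DL1, against 420.2 and 423 CPM with WT (log2 fold change 0.18, edgeR adjusted p = 0.0141), and Cdc6 was lower with DL1 (-0.26).

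The count of mitotic genes lower with DL7 than with WT lay near the share of all genes that were lower. Of these mitotic genes Birc5 was lower with DL7, at 87.8 and 86.8 CPM, against 116 and 111 CPM with WT (log2 fold change -0.38, SE 0.074, edgeR adjusted p = 8.95e-05). It was also lower with DL1 (-0.23) and DL6 (-0.24). Cdc20 was lower with DL6 (-0.30) and DL7 (-0.33), and Ccna2 with DL6 (-0.20) and DL7 (-0.29). Aurka and Gtse1, a regulator of microtubules and p53, were lower with DL6 (-0.29 and -0.35). With the length trend taken out Cdc20 was not called with DL6 (-0.21, edgeR adjusted p = 0.0509) and stood at -0.21 with DL7, and Aurka was not called with DL6 (-0.21, edgeR adjusted p = 0.134). Neither Ccne1 nor Cdk1 nor Ccnb1 was called in any of these 4 comparisons.

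Mki67, Cenpe and Cenpf were higher than with WT in all 4. The log2 fold changes of Mki67 were 0.28 with DL1, 0.46 with DL2, 0.23 with DL6 and 0.30 with DL7, and those of Cenpf were 0.35, 0.49, 0.40 and 0.38. The median of all genes over 7 kb was 0.16, 0.17, 0.22 and 0.28 in the same comparisons. With the length trend taken out the 3 genes were called with DL2 (0.26 for Mki67, 0.22 for Cenpe and 0.28 for Cenpf), and none was called with DL1, DL6 or DL7. In these length-corrected fits the replication genes lower than with WT numbered 3 with DL1, 3 with DL2, 9 with DL6 and 8 with DL7.

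Against EV the DL6 libraries had no member called with edgeR (1.50% of all genes called in either direction). There 4 members had an unadjusted p under 0.05, and DESeq2 called 0. DL7 had 1 (2.78% called in either direction), Mki67, at 1275 and 1288 CPM with DL7, against 1146 and 1142 CPM with EV (log2 fold change 0.16, edgeR adjusted p = 0.0348), and it was not called when any of the 4 DL7 and EV replicates was left out. DL2 had 4 mitotic genes higher and none lower (2.36% of all genes higher, 2.71% lower). They were Mki67 at 1424 and 1444 CPM with DL2, against 1146 and 1142 CPM with EV (log2 fold change 0.33, SE 0.046, edgeR adjusted p = 1.82e-06), Cdc20 (0.43), Birc5 (0.27) and Cenpf (0.20). All 4 were also called with the length trend taken out, where Mki67 had a log2 fold change of 0.38. The 4 calls became 2 without EV replicate 2 or either DL2 replicate. Cdc20 stood at 116 and 122 CPM with DL2, against 87.7 and 88.6 CPM with EV, and Birc5 at 108 and 104 CPM with DL2, against 92.7 and 82.6 CPM with EV.

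DL1 had 3 replication genes (Mcm2, Mcm3 and Mcm5, 0.16 to 0.21) and 3 mitotic genes (Mki67 at 0.15, Cdc20 at 0.41 and Aurka at 0.28) higher and none lower (5.86% of all genes higher, 5.12% lower). Mcm3 stood at 462 and 496 CPM with DL1, against 413 and 416 CPM with EV (log2 fold change 0.21, SE 0.052, edgeR adjusted p = 0.00586). Cdc20 stood at 113 and 123 CPM with DL1, against 87.7 and 88.6 CPM with EV (log2 fold change 0.41, SE 0.076, edgeR adjusted p = 0.000180). The DL1 libraries lay above both EV libraries in both genes. The 6 calls became 1 without EV replicate 1 or EV replicate 2, and 10 were called with the length trend taken out. Pcna, at 178 and 171 CPM with DL1, against 175 and 177 CPM with EV, overlapped between the groups.

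In further pathway genes, 14 of 44 replication genes were lower than with WT and 5 higher with DL6, and 18 lower and 4 higher with DL7. Orc6 was lower by log2 fold changes of -0.47 and -0.52 in these, and Ticrr and Pola1 were higher with both (0.21 and 0.24, and 0.27 and 0.31). Of 52 mitotic genes 7 were lower and 3 higher with DL6, and 10 lower and 7 higher with DL7. The mitotic kinase gene Pbk was lower with both (-0.39 and -0.46), and the kinesin gene Kif18b was higher with both (0.29 and 0.30). Among G1 regulators Cdk4, the partner of the D cyclins, was lower with both (-0.26 and -0.27), and Mxd4 was higher (0.35 and 0.53).

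**Figure D3:**
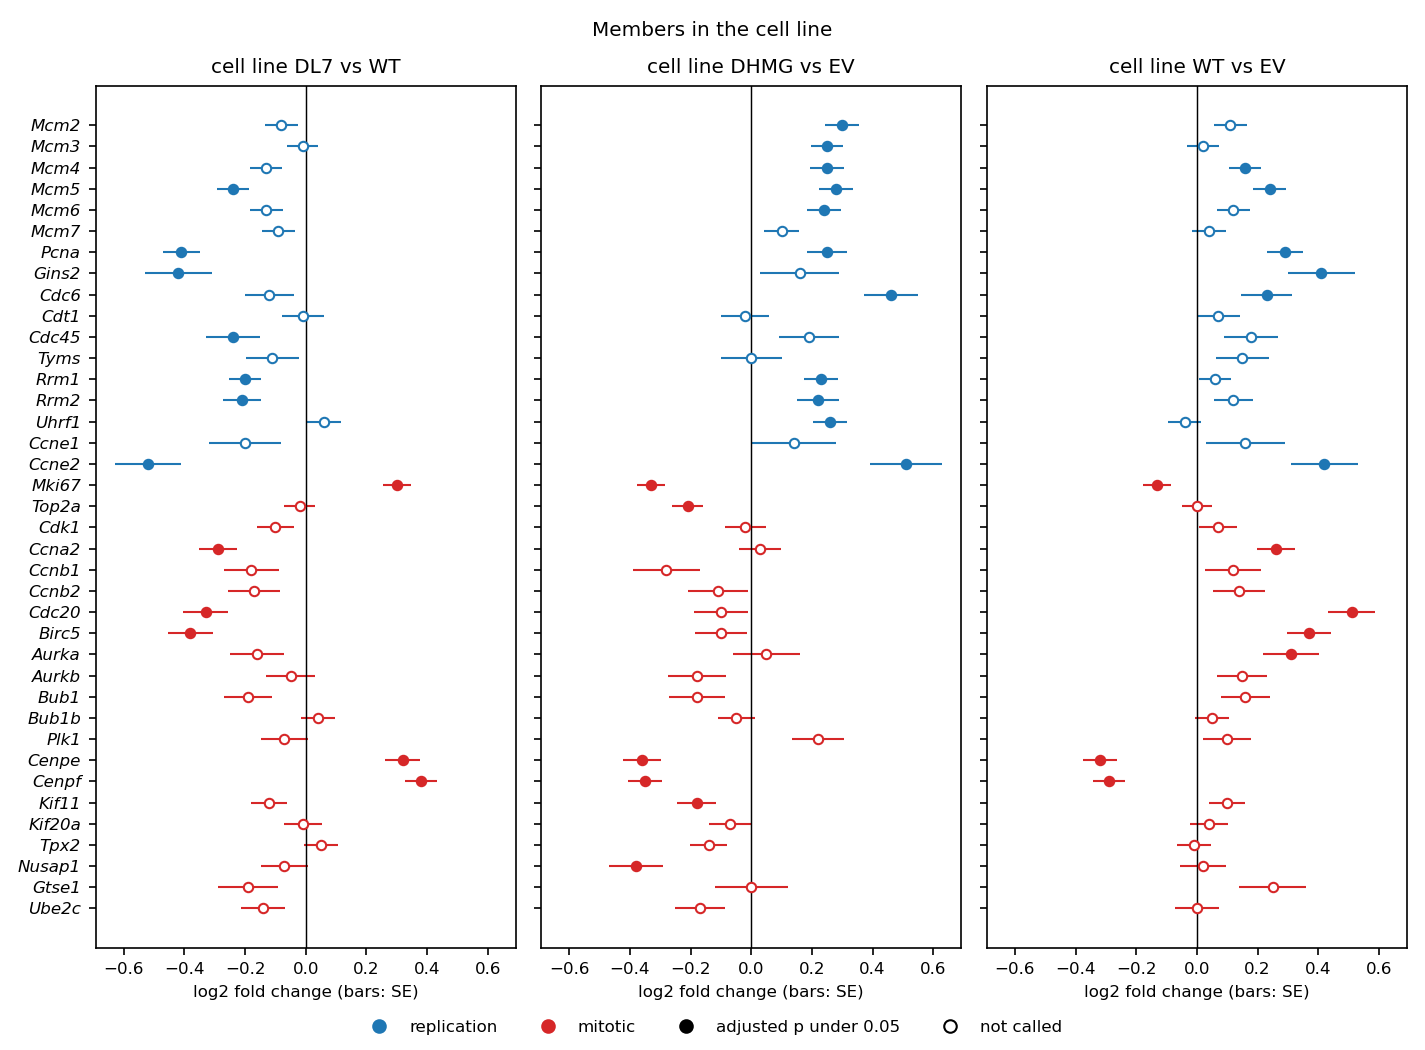
Log2 fold changes with SE of the 17 replication genes (blue) and 21 mitotic genes (red) in the cell line, for DL7 against WT, DHMG against EV and WT against EV, filled where called. DHMG has 11 replication genes to the right of 0 and 6 mitotic genes to the left among those called under TMM scaling, where library totals alone call 0 replication genes higher and 3 lower.

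With DHMG the 2 classes were called in opposite directions under TMM scaling. Against EV 11 of 17 replication genes were higher and none lower, and 6 of 21 mitotic genes were lower and none higher, where 9.64% of all genes were higher and 7.47% lower. With library totals only, the replication count became 0 higher and 3 lower. The median was 0.24 for the replication genes and -0.14 for the mitotic genes. Leaving out 1 replicate of either group gave 12 to 15 members called.

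Cdc6, which loads the MCM helicase, stood at 112 and 104 CPM with DHMG, against 80.1 and 77.3 CPM with EV (log2 fold change 0.46, SE 0.089, edgeR adjusted p = 0.000155). Ccne2 stood at 52.3 and 47.5 CPM with DHMG, against 32.2 and 38.2 CPM with EV (log2 fold change 0.51, SE 0.12, edgeR adjusted p = 0.00229), and Mcm2 at 473 and 425 CPM with DHMG, against 375 and 354 CPM with EV (log2 fold change 0.30, SE 0.056, edgeR adjusted p = 7.44e-05). Both DHMG libraries lay above both EV libraries in each. The other 8 called were Mcm3, Mcm4, Mcm5, Mcm6, Pcna, Rrm1, Rrm2 and Uhrf1, at log2 fold changes of 0.22 to 0.28. Ccne1 at 29.3 and 32.3 CPM with DHMG, against 28.2 and 27.3 CPM with EV, was not called (edgeR adjusted p = 0.546).

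Nusap1, a spindle microtubule protein, stood at 81.3 and 80.7 CPM with DHMG, against 111 and 100.2 CPM with EV (log2 fold change -0.38, SE 0.089, edgeR adjusted p = 0.00138). Mki67 stood at 931 and 883 CPM with DHMG, against 1146 and 1142 CPM with EV (log2 fold change -0.33, SE 0.047, edgeR adjusted p = 6.44e-07). In both genes the DHMG libraries lay below both EV libraries. Cenpe stood at 223 and 226 CPM with DHMG, against 285 and 292 CPM with EV (log2 fold change -0.36, SE 0.062, edgeR adjusted p = 2.30e-05). Cenpf (-0.35), the topoisomerase Top2a (-0.21) and the spindle motor Kif11 (-0.18) fell too. Ccnb1 at 56.2 and 53.3 CPM with DHMG, against 62.9 and 71.2 CPM with EV, was not called (edgeR adjusted p = 0.0618), nor was Cdk1 at 166 and 163 CPM with DHMG, against 172 and 161 CPM with EV. With the length trend taken out the 11 rises stayed called, and of the 6 falls Mki67, Cenpe, Cenpf and Nusap1 did (-0.20, -0.24, -0.21 and -0.33).

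Against WT 4 replication genes were higher with DHMG (Mcm2, Mcm3, Rrm1 and Uhrf1, 0.16 to 0.30) and none lower, and 10 mitotic genes were lower and none higher (9.21% of all genes higher, 5.59% lower). Cdc20 stood at 76.3 and 89.3 CPM with DHMG, against 125 and 125 CPM with WT (log2 fold change -0.60, SE 0.085, edgeR adjusted p = 5.49e-07). Birc5 stood at 78.4 and 86.5 CPM with DHMG, against 116 and 111 CPM with WT (log2 fold change -0.46, SE 0.083, edgeR adjusted p = 5.24e-05). Ccnb1 was lower by a log2 fold change of -0.40 and Nusap1 by -0.40. Here Mki67 was lower (-0.20) while genes over 7 kb had a median of 0.11. Uhrf1 stood at 393 and 415 CPM with DHMG, against 333 and 323 CPM with WT (log2 fold change 0.30, SE 0.057, edgeR adjusted p = 0.000140). The 14 calls became 7 without DHMG replicate 2. Pcna at 209 and 208 CPM with DHMG, against 209 and 223 CPM with WT, was not called, nor was Mcm5 at 394 and 427 CPM with DHMG, against 391 and 405 CPM with WT.

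The direction of the replication results with DHMG turned with the scaling. Library totals alone moved the median of all genes to -0.27 against EV and to -0.28 against WT. On that scale 18 mitotic genes were lower against EV. Against WT 10 replication genes were lower and 0 higher, and 20 mitotic genes were lower. The replication median was -0.02 against EV and -0.19 against WT, and the mitotic median -0.40 and -0.52. The names of the DHMG files lack the run number that the other cell line files carry, and the DHMG libraries stand apart in other values. Reads on the forward strand made up 8.56% and 8.49% of stranded reads with DHMG and 5.44 to 5.83% in the other cell line libraries. Reads outside genes made up 73.7% and 73.9% with DHMG and 65.9 to 70.4% in the others. What differs with DHMG and what differs with a run cannot be told apart.

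Of the further genes with DHMG against EV, 7 of 44 replication genes rose and 1 fell, and 6 of 52 mitotic genes fell and none rose. Over all genes 9.64% rose and 7.47% fell. Fen1, a flap nuclease, Dut, which keeps uracil out of DNA, and Pola2, a polymerase subunit, rose by log2 fold changes of 0.38, 0.31 and 0.29. Smc4, a condensin subunit, fell by 0.44. Among 24 G1 regulators 1 rose and 4 fell. The CDK inhibitor Cdkn1a rose by 1.00 (edgeR adjusted p = 0.00466), while Mxd4 fell by 0.69, Rb1 by 0.54 and Btg2 by 0.42.

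**Figure D4:**
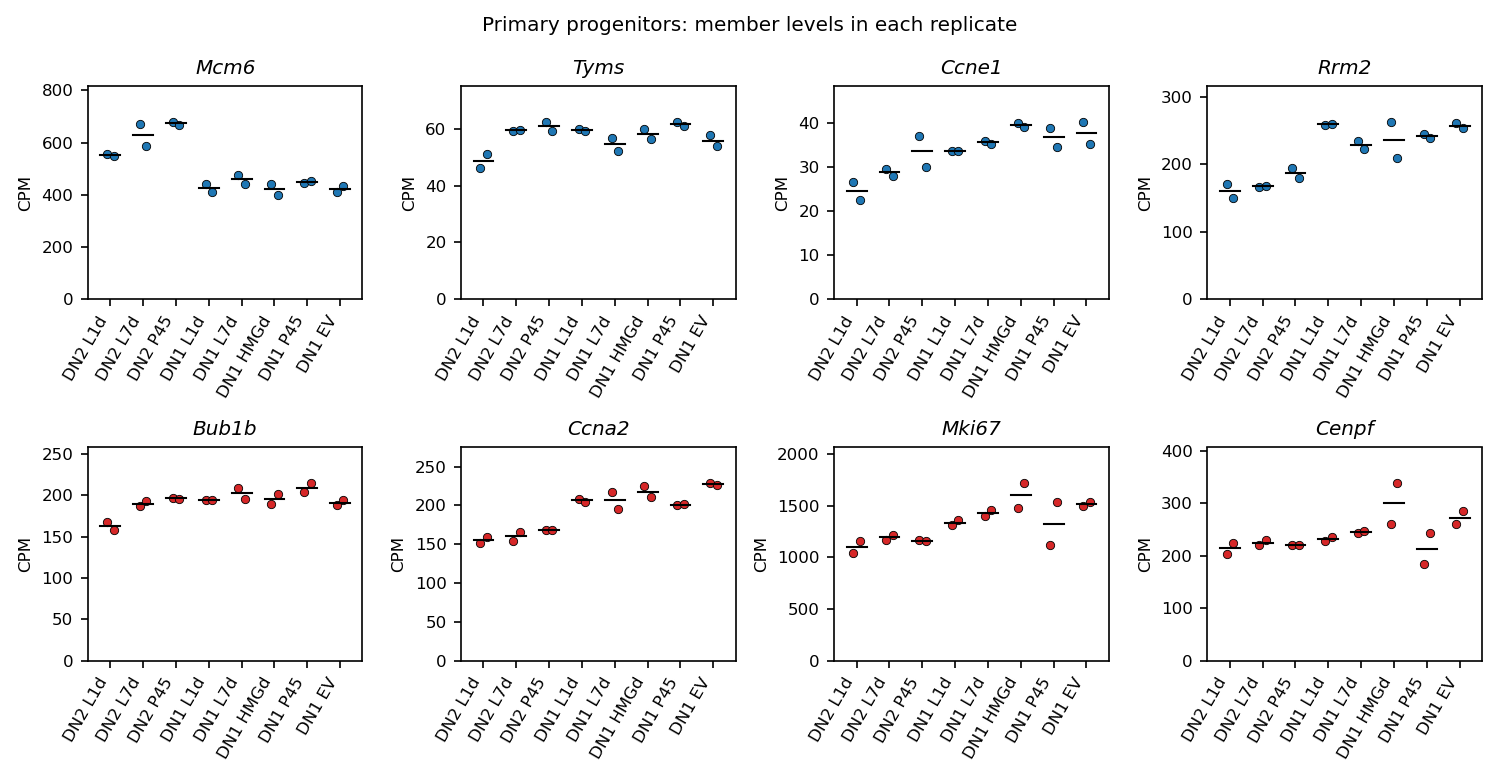
CPM of 4 replication genes (blue) and 4 mitotic genes (red) in the 8 groups of primary cells, 1 point per replicate and a bar at the mean of 2. Mcm6 lies higher in DN2 than in DN1, Rrm2 and Ccna2 lie lower, and Mki67 and Cenpf differ between the 2 replicates of DN1 P45 and of DN1 HMGd.

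In DN1 cells no member was called against EV with edgeR for any of the 4 constructs. The share of all 15010 tested genes called in either direction was 0.473% with L1d, 5% with L7d, 0.00666% with HMGd and 7.46% with P45. Members with an unadjusted p under 0.05 numbered 1 with L1d, 2 with L7d, 1 with HMGd and 7 with P45. DESeq2 called 0, 0, 0 and 1 in the same order, the last being Cenpf. With P45 edgeR also called Cenpf when a shift shared by replicate number was fitted. Against P45, L1d and L7d also had 0 called with edgeR (1.33% and 0.00666% of all genes), with 0 and 1 at an unadjusted p under 0.05 and 0 with DESeq2 in both.

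Ccna2 had the lowest adjusted p with L1d and L7d, at 208 and 205 CPM with L1d, 217 and 196 CPM with L7d and 200.4 and 202 CPM with P45, against 229 and 226 CPM with EV (edgeR adjusted p = 0.574, 0.291 and 0.122). Every replicate with these 3 constructs lay below both EV replicates. With P45 the median was 0.05 for the replication genes and -0.09 for the mitotic genes, of which 1 of 21 had a positive log2 fold change. That was Bub1b. Mcm5 stood at 299 and 319 CPM with P45, against 298 and 311 CPM with EV, and Pcna at 159 and 169 CPM with P45, against 157 and 158 CPM with EV. Cdk1 stood at 96.5 and 105 CPM with P45, against 110.0 and 114 CPM with EV (edgeR adjusted p = 0.215).

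Some G1 regulators and most late neutrophil genes were called in DN1. With P45 against EV 5 of 27 G1 regulators fell and 1 rose, where 5.72% of all genes fell and 1.75% rose, and the list's median was -0.03. Mxd1, a MAX partner, fell by a log2 fold change of 1.30, the antiproliferative gene Tob1 by 1.14 and the cyclin gene Ccnd3 by 0.53, and Cdk6 rose by 0.30. The late neutrophil list summed to 10652 and 12453 CPM with P45, against 33765 and 31914 CPM with EV, with 12 of its 13 genes lower and none under 1 CPM in either group. Its part in these G1 gene results was not tested. Of further cell cycle genes E2f2 and E2f8, both of the E2F family, fell by 0.45 and 0.27, and Foxm1, an activator of mitotic genes, by 0.34, with 0 of 44 replication and 0 of 53 mitotic genes higher.

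HMGd against P45 in DN1 had 2 members called, both mitotic and both higher (4.88% of all genes called in either direction). Cenpf stood at 261 and 339 CPM with HMGd, against 184 and 243 CPM with P45 (log2 fold change 0.48, SE 0.12, edgeR adjusted p = 0.0298). Cenpe stood at 279 and 323 CPM with HMGd, against 209 and 262 CPM with P45 (log2 fold change 0.35, SE 0.090, edgeR adjusted p = 0.0361). The 2 replicates of each group lay apart. Cenpf ran from 256 to 259 CPM in the 3 libraries of HMGd replicate 1 and stood at 336 and 340.1 CPM in the 2 of replicate 2. It ran from 164 to 199 CPM in the 3 libraries of P45 replicate 1 and from 236 to 256 CPM in those of replicate 2. Over all genes over 7 kb the mean log2 ratio was -0.10 in replicate 1 of P45 and 0.00 in replicate 2. With HMGd it was -0.04 and 0.12, and replicate 2 lay above replicate 1 in every other primary group too. The median log2 fold change of genes over 7 kb was 0.07 in this comparison. With the length trend taken out 1 member was called. Markers of other cells moved with this comparison. The late neutrophil genes summed to 26371 and 27879 CPM with HMGd, against 10652 and 12453 CPM with P45, with 10 of 13 higher and none under 1 CPM. The mast cell and basophil genes summed to 324 and 344 CPM with HMGd, against 148 and 165 CPM with P45, with 5 of 7 higher and none under 1 CPM. Their part in the rise of Cenpe and Cenpf was not tested. No member was called without P45 replicate 1 or without HMGd replicate 2. Without P45 replicate 2 the count against EV became 3 with P45, all lower and mitotic. Mki67, at 1479 and 1719 CPM with HMGd, against 1114 and 1532 CPM with P45, was not called.

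Whether the L1 segment bears on these genes in DN2 cells was read from L1d against P45. Of 17 replication genes 10 were lower with L1d and none higher, where 2.80% of all genes were lower and 8.05% higher, and 1 of 21 mitotic genes was lower. The medians were -0.28 and -0.12. The call rests on few libraries, since the total was 0 without P45 replicate 1, 1 without L1d replicate 2, 8 without P45 replicate 2 and 13 without L1d replicate 1.

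Ccne1 stood at 26.7 and 22.5 CPM with L1d, against 37.2 and 30.1 CPM with P45 (log2 fold change -0.45, SE 0.11, edgeR adjusted p = 0.0187). Tyms, which makes thymidylate, stood at 46.3 and 51.0 CPM with L1d, against 62.6 and 59.1 CPM with P45 (log2 fold change -0.32, SE 0.073, edgeR adjusted p = 0.0108). Uhrf1, which keeps DNA methylation through replication, stood at 315 and 274 CPM with L1d, against 383 and 349.9 CPM with P45 (log2 fold change -0.31, SE 0.078, edgeR adjusted p = 0.0173). Both L1d replicates lay below both P45 replicates in each of them. All 6 helicase genes Mcm2 to Mcm7 were lower (-0.22 to -0.31), Mcm5 at 290.4 and 284 CPM with L1d, against 343 and 354 CPM with P45, and so was Gins2 (-0.30). Pcna at 154 and 132 CPM with L1d, against 190.2 and 164 CPM with P45, was not called. With the length trend taken out 13 replication and 4 mitotic genes were lower.

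The mitotic call was Bub1b, a spindle checkpoint kinase, at 168 and 158 CPM with L1d, against 197 and 196 CPM with P45 (log2 fold change -0.27, SE 0.061, edgeR adjusted p = 0.0108). Mki67 at 1043 and 1158 CPM with L1d, against 1166 and 1153 CPM with P45, was not called, nor was Cdk1 at 84.1 and 81.4 CPM with L1d, against 88.4 and 87.7 CPM with P45. Ccnb1 at 59.0 and 53.4 CPM with L1d, against 62.0 and 60.5 CPM with P45, was not called either.

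Markers of other cells moved with this comparison. The 6 primary granule genes, such as Mpo, summed to 4560.1 and 3341 CPM with L1d, against 1672 and 1691 CPM with P45, with 5 of 6 higher. The late neutrophil genes summed to 510.3 and 1133 CPM with L1d, against 163 and 200.0 CPM with P45, with 12 of 13 higher. The mast cell and basophil genes summed to 372 and 393 CPM with L1d, against 198 and 234 CPM with P45, with 5 of 7 higher. Of the dendritic and macrophage genes 3 of 6 tested were higher, with sums of 519 and 692 CPM with L1d, against 361 and 345 CPM with P45. Of the erythroid and megakaryocyte genes 2 of 5 tested were higher, with sums of 267 and 412 CPM with L1d, against 147 and 193 CPM with P45. The 10 T lineage genes summed to 481 and 411 CPM with L1d, against 1417 and 1279.8 CPM with P45, with 7 of 8 tested lower, and 5 of the 10 were under 1 CPM with L1d and 3 with P45. Of the OP9 stroma genes none of the 4 tested was called by edgeR, and their sums overlapped, at 58.2 and 229.9 CPM with L1d, against 79.5 and 134 CPM with P45. The part of these cells in the fall of replication genes was not tested. For the same constructs in DN1 cells no member was called. There the granule sums were 8324 and 7324 CPM with L1d, against 7059 and 7550.1 CPM with P45, and the late neutrophil sums were 22205 and 23776 CPM with L1d, against 10652 and 12453 CPM with P45, with 8 of 13 genes higher.

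Further replication genes had 7 of 44 lower and none higher with L1d in DN2, led by Dut (-0.37), Tk1 (-0.34) and the primase gene Prim1 (-0.32). Of 53 further mitotic genes 3 were lower, Ect2, Ncapd2 and Kif14. Over all genes 2.80% were lower and 8.05% higher in this comparison. Among 27 G1 regulators Cdk4 was lower (-0.33), and Mxd1 (0.99), Btg1 (0.91) and Btg2 (0.51) were higher, along with Cdkn2d (0.39). L7d against P45 in DN2 had 0 members called with edgeR (0.293% of all genes), 2 with an unadjusted p under 0.05 and 0 with DESeq2. There Mcm5 stood at 316 and 314 CPM with L7d, against 343 and 354 CPM with P45 (log2 fold changes were negative for all 17 replication genes, with a median of -0.13), and Mki67 at 1170.0 and 1218 CPM with L7d, against 1166 and 1153 CPM with P45.

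**Figure D5:**
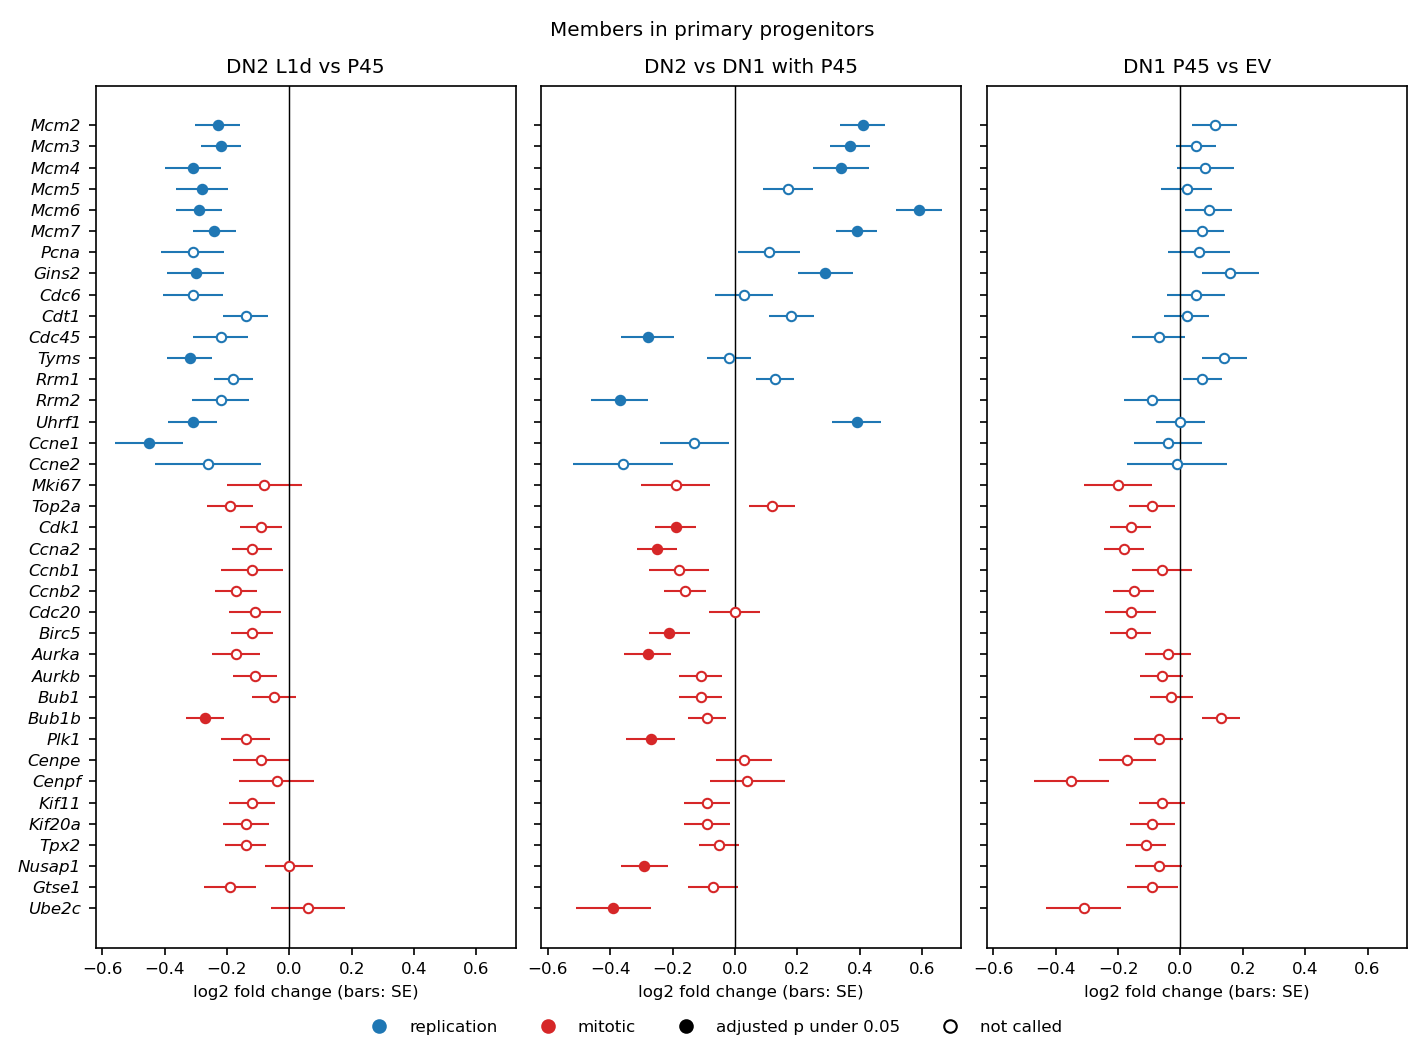
Log2 fold changes with SE of the 17 replication genes (blue) and 21 mitotic genes (red) in primary cells, for L1d against P45 in DN2, DN2 against DN1 with P45 and P45 against EV in DN1, filled where called. In the first panel 10 replication genes are called to the left, in the second 7 replication genes are called to the right and 7 mitotic genes to the left, and in the third none is called.

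The step between the stages was read from DN2 against DN1 within each construct. With P45 7 replication genes were higher in DN2 and 2 lower, and 7 mitotic genes were lower and none higher (library totals only: 1 mitotic gene higher and none lower), where 20.6% of all genes were higher and 22.6% lower. With L7d it was 6 higher and 4 lower, and 8 mitotic genes lower (19.5% and 21.8% of all genes). With L1d it was 4 higher and 5 lower, and 15 mitotic genes lower (20.1% and 19.7%). The replication medians were 0.17 with P45, 0.07 with L7d and -0.02 with L1d, and the mitotic medians -0.11, -0.18 and -0.27.

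The helicase genes led the rises. Mcm6 stood at 681 and 668 CPM in DN2, against 445 and 454 CPM in DN1, with P45 (log2 fold change 0.59, SE 0.075, edgeR adjusted p = 1.43e-05). It stood at 669.9 and 586 CPM in DN2, against 477 and 443 CPM in DN1, with L7d (0.45) and at 555 and 548 CPM in DN2, against 441 and 412 CPM in DN1, with L1d (0.37). Mcm2, Mcm3 and Mcm7 were higher in DN2 with all 3 constructs too, Mcm2 by log2 fold changes of 0.41 with P45, 0.32 with L7d and 0.27 with L1d. Mcm5, another subunit of the same ring, was called with none of the 3, and stood at 343 and 354 CPM in DN2, against 299 and 319 CPM in DN1, with P45. Uhrf1 was higher with P45 (0.39) and L7d (0.20).

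The nucleotide gene Rrm2, the small subunit of ribonucleotide reductase, was lower. It stood at 171 and 149 CPM in DN2, against 258 and 259.8 CPM in DN1, with L1d (log2 fold change -0.69, SE 0.093, edgeR adjusted p = 2.63e-05), and its log2 fold changes were -0.45 with L7d and -0.37 with P45. The large subunit Rrm1, at 407 and 392 CPM in DN2, against 365 and 368 CPM in DN1, with P45, was not called. Cdc45, which joins the helicase at origins, was lower with all 3 (-0.28 with P45, -0.34 with L7d and -0.42 with L1d). Ccne1 and Ccne2 were lower with L7d (-0.30 and -0.49) and with L1d (-0.45 and -0.51).

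Among the mitotic genes Ube2c, which tags proteins for the anaphase-promoting complex, stood at 72.9 and 82.9 CPM in DN2, against 98.0 and 106 CPM in DN1, with P45 (log2 fold change -0.39, SE 0.12, edgeR adjusted p = 0.0181). Ccna2 was lower with all 3 constructs, at 152 and 159 CPM in DN2, against 208 and 205 CPM in DN1, with L1d (log2 fold change -0.41, SE 0.066, edgeR adjusted p = 0.000140). Nusap1 (-0.29 with P45 and -0.36 with L1d) and the kinases Plk1 and Aurka were lower in all 3 as well. Cdk1 was lower with P45 (-0.19), L7d (-0.28) and L1d (-0.38), and Ccnb1 was called with L1d (-0.32). Mki67 stood at 1166 and 1153 CPM in DN2, against 1114 and 1532 CPM in DN1, with P45, and was not called with any construct.

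The split of these calls rests on the scaling. With library totals only, where the median of all genes was 0.13 with P45, 0.19 with L7d and 0.22 with L1d, 11 replication genes were higher and 1 lower and 1 mitotic gene was higher and none lower with P45. With L7d it was 11 and 1, and 0 mitotic genes, and with L1d 9 and 2, and 1 mitotic gene lower. Markers of other cells moved with the step. With P45 the late neutrophil sum was 163 and 200.0 CPM in DN2, against 10652 and 12453 CPM in DN1. The primary granule sum was 1672 and 1691 CPM in DN2, against 7059 and 7550.1 CPM in DN1, with 6 of 6 lower. The T lineage sum, which includes Il2ra, was 1417 and 1279.8 CPM in DN2, against 14.3 and 12.3 CPM in DN1. Of 6 tested dendritic and macrophage genes 4 were lower and 1 higher. The part of these cells in the step was not tested. With P45 the 16 calls became 9 without DN2 replicate 2 and 10 without DN1 replicate 2. With L7d the 18 became 7 without replicate 1 of either DN2 or DN1. With L1d the 24 became 12 without DN1 replicate 2.

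With P45 further genes followed both classes in DN2. Of 44 replication genes 20 were higher and 4 lower, and of 53 mitotic genes 4 were higher and 20 lower. Over all genes 20.6% were higher and 22.6% lower. Dut, Pola2 and Pole were higher (0.60, 0.51 and 0.49), E2f2, E2f7 and E2f8 were lower (-1.57, -1.03 and -0.44), and of the mitotic ones Hmgb2, Hjurp and Cenpa were lower (-0.58, -0.54 and -0.46). With L7d 17 of the 44 were higher and 3 lower, and 0 of the 53 were higher and 23 lower (19.5% of all genes higher, 21.8% lower). With L1d 9 of the 44 were higher and 4 lower, where 20.1% of all genes were higher and 19.7% lower. There 0 of the 53 were higher and 30 lower, with Foxm1 at -0.79. G1 regulators had 10 higher and 10 lower of 27 with P45. The cyclin gene Ccnd1 was higher by 1.81, Mycn by 1.67 and the CDK inhibitor Cdkn2b by 2.11, while Mxd1 (-2.51), the CDK inhibitor Cdkn2d (-1.32) and Btg1 (-1.17) were lower.

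Whether the step differs with the construct was tested as its difference. For L1d minus P45 no member was called with edgeR (1.58% of all genes called in either direction), 6 had an unadjusted p under 0.05 and DESeq2 called 0. The 6 were Mcm5, Pcna, Tyms, Rrm2, Uhrf1 and Top2a, all negative at -0.23 to -0.34, with edgeR adjusted p-values of 0.180 to 0.333. Without DN2 L1d replicate 1 there was 1 call. For L7d minus P45 no member was called (0% of all genes), 0 had an unadjusted p under 0.05 and DESeq2 called 0. Each T library taken as its own replicate gave 13 members called for L1d minus P45, all lower, but the T libraries of 1 replicate share the B number in their titles, so those values treat repeats as separate samples.

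Members differed in how often they were called over the 25 comparisons, many of which share libraries. Mki67 was called in 10 of them and Birc5 in 9, and Mcm3 and Cenpf in 8 each. Cdt1, which loads the MCM helicase together with CDC6, was not called in any. Its lowest edgeR adjusted p was 0.0549, for DN2 against DN1 with P45 (log2 fold change 0.18), where it was called as higher with the length trend taken out (0.24, edgeR adjusted p = 0.0181). It ran from 100 to 124 CPM in the cell line and from 65.0 to 89.8 CPM in primary cells. Bub1, a spindle checkpoint kinase, Kif20a, a kinesin of cytokinesis, and Tpx2, a spindle assembly factor that activates Aurora A, were called in 1 each. Bub1 ran from 72.2 to 101 CPM in the line and from 64.0 to 82.4 CPM in primary cells, and Kif20a from 135 to 161 CPM and from 118 to 156 CPM. Tpx2 ran from 244 to 304 CPM in the line and from 249 to 329 CPM in primary cells. Top2a, which untangles DNA, was called in 2, both with DHMG, and ran from 817 to 1018 CPM in the line and from 984 to 1179 CPM in primary cells. With the length trend taken out Top2a was called lower against WT with DL1 (-0.19, edgeR adjusted p = 0.00481) and DL6 (-0.17, edgeR adjusted p = 0.00697). In that fit it was not called with DHMG against EV (-0.12, edgeR adjusted p = 0.0902).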

How the data were processed

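RNA was sequenced as paired reads from a stranded total RNA kit (SMARTer Pico), per the labels' protocols. The authors deposited 1 raw count table per library. The submitters' processing notes name STAR 2.5.0a, HTSeq 0.6.1 and the build GRCm38, and the annotation release is not given in the sources used here. Each table has 3 count columns, and the reverse-strand one was used, since the forward-strand column held 4.88 to 8.56% of stranded reads in genes. Of 59 libraries 58 were used, and 1 of DN1 L1d replicate 1 was left out because its file ends after 14312 complete gene lines. Rows that name no gene held 56.1 to 73.9% of reads and stayed out of library sizes. Primary titles carry a B and a T number. T was read as a repeat library of B replicates, and T libraries were summed, giving 2 replicates per group.

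Both fits (cell line 10939 genes and 14 libraries, primary 15010 genes and 16 replicates) used edgeR 4.0.16 in R 4.3.3 with filterByExpr, TMM scaling, a quasi-likelihood test over all groups and Benjamini-Hochberg adjustment at 0.05, with a prior count of 0.125, after a test on simulated data. Common coefficients of variation were 4.48% and 9.20%. DESeq2 1.42.0, other scalings, no filter, unstranded counts, a replicate block, T libraries as replicates, a fit without DHMG and leaving out each replicate were alternatives. A fit with each library's trend of log ratio on transcript length taken out was added after seeing the data (lengths for 84.9% and 83.0% of tested genes). Symbols and lengths are from GENCODE M21.

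The members and lists were chosen with earlier results of these data known. Full values are given for members called, up to 3 per class and direction by size, plus Mcm5, Pcna, Ccne1, Mki67, Ccnb1 and Cdk1 in the main comparisons, and a few others named for contrast were chosen after their values were seen. Up to 3 genes per direction are named from the other pathway lists.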

Additional observations from a re-analysis of the deposited data

Results flagged for a closer look

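For 12 pairs of effects, all samples of 1 system moved one way and all samples of the other moved the opposite way, with a call in at least 1 of them. The difference between the systems was not tested in any of these. The 12 come from 304 pairs compared, of which 31 were opposite, and these larger counts include pairs of DN1 with DN2. The same count was not made over all tested genes. With so few replicates per group, samples can separate fully by chance, so the 12 are not shown to exceed a chance number. The values below are the first log2 fold change minus the second.

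With full-length TCF-1 against EV, 4 mitotic genes rose in the cell line and had negative fold changes in DN1 that were not called. The difference was 0.44 for Ccna2 (0.26 in the line, -0.18 in DN1), 0.67 for Cdc20 (0.51 and -0.16), 0.53 for Birc5 (0.37 and -0.16) and 0.35 for Aurka (0.31 and -0.04). With the L1 deletion against full-length TCF-1, cell line minus DN1 was 0.28 for Mcm3 (0.18 and -0.09) and -0.30 for Birc5 (-0.23 and 0.06). Cell line minus DN2 was 0.30 for Mcm2 (0.06 and -0.23), 0.41 for Mcm3 (0.18 and -0.22) and 0.27 for Cenpe (0.19 and -0.09), and Mcm3 was called in both. With the length trend taken out, 2 of the cell line calls were lost. They were Aurka with WT against EV (0.22, edgeR adjusted p = 0.0906) and Cenpe with DL1 against WT (0.05, edgeR adjusted p = 0.674).

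With the L7 deletion against full-length TCF-1, the difference was -0.40 for Cdc20 (-0.33 in the line, 0.07 in DN1) and -0.47 for Birc5 (-0.38 in the line, 0.09 in DN2). With the HMG deletion against EV, it was -0.54 for Cenpe (-0.36 in the line, 0.18 in DN1). The cell line and the primary cells were fitted apart, and cell type and time in culture differ between them, so these cannot be told apart.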

How the results depend on the processing

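Of 167 member calls, 102 stayed called in the same direction with library totals only, 141 with DESeq2, 165 with RLE size factors, 154 with counts ignoring strand, 152 with no filter, 131 with the length correction and, of 65, 64 without DHMG. No call turned direction except 12 with library totals and 3 with the length correction. With library totals the turned log2 fold changes were, for DHMG against EV, -0.01 for Mcm3, -0.02 for Mcm4, -0.02 for Mcm6, -0.02 for Pcna, -0.04 for Rrm1, -0.04 for Rrm2 and -0.01 for Uhrf1, for DHMG against WT, -0.08 for Mcm2, -0.05 for Mcm3 and -0.11 for Rrm1, and for DN2 against DN1, 0.01 for Tpx2 with L1d and 0.01 for Birc5 with L7d. With the length correction they were those of Mki67, 0.12 for WT against EV, -0.03 for DL6 against WT and -0.01 for DL7 against WT. The causes were not tested.

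Counts of members called moved by over 1.5 times as follows (all replicates, TMM, edgeR in brackets). Library totals gave 14 for DL1 against EV (6), 2 for DL2 against EV (4), 10 for DL2 against WT (6), 25 for DL7 against WT (13), 30 for DHMG against WT (14), 0 for DN1 HMGd against P45 (2), 6 for DN2 L1d against P45 (11) and 12 for DN2 against DN1 with L1d (24). DESeq2 gave 8 for DL6 against WT (15) and 1 for DN1 P45 against EV (0). No filter gave 2 for DN1 P45 against EV (0) and 3 for the step L1d minus P45 (0). Counts ignoring strand gave 1 for DN1 HMGd against P45 (2). T libraries as replicates gave 11 for DN1 P45 against EV (0), 1 for L1d against EV (0), 7 for L7d against EV (0), 1 for L7d against P45 (0), 8 for HMGd against P45 (2), 26 for DN2 L1d against P45 (11), 6 for DN2 L7d against P45 (0) and 13 for the step L1d minus P45 (0). The length correction gave 10 for DL1 against EV (6), 0 for DL7 against EV (1), 1 for DN1 P45 against EV (0), 1 for HMGd against P45 (2) and 17 for DN2 L1d against P45 (11).

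Leaving out 1 replicate gave, against EV, 8 to 10 calls for WT, 12 to 15 for DHMG, 1 to 8 for DL1, 2 to 3 for DL2 and 0 to 0 for both DL6 and DL7. Against WT it gave 7 to 11 calls for DHMG, 11 to 11 for DL7, 7 to 12 for DL6, 4 to 5 for DL2 and 3 to 12 for DL1. In DN1 it gave 0 to 3 for P45 against EV, 0 to 3 for HMGd against P45 and 0 to 0 for the others. It gave 0 to 13 for DN2 L1d against P45, 0 to 0 for L7d, 9 to 16, 12 to 19 and 7 to 13 for DN2 against DN1 with P45, L1d and L7d, and 0 to 1 and 0 to 0 for the steps. With 1 replicate left in a group, it is assumed to vary like the other groups.

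Same-numbered replicates had correlations of -0.0573 to 0.0520 over 21 pairs of cell line groups. Over 28 primary pairs they ran from -0.0316 to 0.473, with a median of 0.154, 20 over 0.1 and 0 under -0.1. The labels state no pairing, so the main fits do not model a shift shared by number, although most primary pairs had positive correlations. With a replicate block all 167 calls stayed, and counts were 14 for DN2 L1d against P45 (11) and 1 for DN1 P45 against EV (0), which was Cenpf. Limits: 2 replicates per group give 7 and 8 residual degrees of freedom, the rRNA share ran from 9.88 to 19.1% in the cell line, and the members' differences were mostly under 1.5-fold, so a member not called may still differ.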
